A study of Mus musculus with 4 samples.

Results

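The genes described here are Anxa2 and Anxa5, which encode annexins, and S100a6 and S100a10, which encode S100 proteins. They are 4 of the 6025 mouse genes that single-gene probes named on the array, and they were read by 5 probes, 2 for Anxa2 and 1 for each of the others. All 5 probes had a value on all 4 arrays, and 0 of these values were listed at exactly 0. The genes were chosen with their ratios on these arrays already known, so those ratios are a description without a test.

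Mouse embryonic stem (ES) cells of 3 genotypes were grown without feeder cells, kept without serum for 72 h and then exposed to serum for 4 h. The fosBd/d line carries homozygous alleles from which only ΔFosB, the short form of the AP-1 subunit FosB, is made. The fosB-null line and wild-type cells complete the design, and whether each line is 1 clone was not stated. Each array was a cDNA microarray on which RNA of 1 mutant was hybridised together with wild-type RNA, with 2 arrays per mutant and the dyes exchanged between them. Replicate 1 is the array labelled with the mutant in Cy3 and replicate 2 the one with the mutant in Cy5. Separate cultures for the 2 arrays are not stated, so their spread may be technical.

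Annexins are cytosolic proteins that bind acidic phospholipids of membranes when calcium is present. S100 proteins are small calcium sensors of the EF-hand type that usually act as dimers and bind other proteins, annexins among them. A dimer of S100A10 (p11) holds a pair of annexin A2 molecules together, and this complex sits under the plasma membrane, links it to cortical actin and binds plasminogen and its activator at the cell surface. S100A10 is unusual among S100 proteins because it does not need calcium for this. Annexin A5 binds phosphatidylserine and coats damaged or dying membranes, and S100A6 (calcyclin) is a growth-associated S100 protein first found as a serum-induced transcript.

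Which way each ratio runs could not be settled from the labels. Minus signs on exact zeros mark fosBd/d replicate 1 and fosB-null replicate 2 as turned before deposit. Taking Agilent's order of dyes, Cy5 over Cy3, fosBd/d ratios above 0 are likely higher RNA in the mutant. On the same basis fosB-null ratios above 0 are lower RNA in that mutant. If every array had instead been written as mutant over wild type, the fosB-null reading would be the opposite. In the labels Cy3 is described as red and Cy5 as green, and that wording would turn both readings. fosB-null ratios are therefore given by sign. Arrays with the mutant in the same dye correlated at r = -0.46 (replicate 1 of both mutants) and r = -0.37 (replicate 2) over all probes. Arrays of different mutants with the mutant in different dyes correlated at r = 0.34 (fosBd/d replicate 1 with fosB-null replicate 2) and r = 0.33 (the other pair). The 2 arrays of a mutant correlated at r = -0.12 for fosBd/d and r = -0.32 for fosB-null over all probes, although each pair was deposited as if turned one way. With the turning undone, every pair of arrays had a positive r. It was lowest for the 2 fosBd/d arrays (0.12) and highest for replicate 1 of both mutants (0.46). All columns had a median of 0.0, and the log2 SD over probes ranged from 0.44 on fosB-null replicate 1 to 0.82 on fosBd/d replicate 1. No probe was named Fosb alone, so the targeted gene could not be read, and ratios give no levels from which the ES cell identity could be checked.

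FosB acts through AP-1 sites, so the 250 bases before each start site in the RefSeq promoter table (mouse build GRCm38.p6) are shown for the 3 members matched there. The Anxa2 stretch is chr9:69453433-69453682 on the plus strand, that of Anxa5 is chr3:36475888-36476137 on the minus strand, and that of S100a6 is chr3:90612644-90612893 on the plus strand. Capitals mark every match to the motifs that were searched.
Anxa2: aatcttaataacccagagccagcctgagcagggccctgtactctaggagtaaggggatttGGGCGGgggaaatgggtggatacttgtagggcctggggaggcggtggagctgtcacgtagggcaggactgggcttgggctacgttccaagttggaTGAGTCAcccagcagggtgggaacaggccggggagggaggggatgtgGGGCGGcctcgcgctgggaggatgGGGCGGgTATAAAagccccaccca
Anxa5: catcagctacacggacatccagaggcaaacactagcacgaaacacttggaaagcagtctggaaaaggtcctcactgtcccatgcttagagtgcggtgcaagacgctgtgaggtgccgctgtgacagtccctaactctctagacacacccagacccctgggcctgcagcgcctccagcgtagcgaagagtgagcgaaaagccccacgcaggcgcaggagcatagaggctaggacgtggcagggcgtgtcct
S100a6: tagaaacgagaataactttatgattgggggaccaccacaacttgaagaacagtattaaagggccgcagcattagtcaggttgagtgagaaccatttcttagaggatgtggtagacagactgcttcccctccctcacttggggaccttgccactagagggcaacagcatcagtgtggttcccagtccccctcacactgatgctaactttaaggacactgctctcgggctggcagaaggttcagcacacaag
The motifs were the AP-1 site (TGACTCA), the cAMP response element (TGACGTCA), the GC box (GGGCGG), the TATA box (TATAAA) and the CArG box, each on both strands. In Anxa2, 1 AP-1 match lay 95 to 89 bases before the start, read on the minus strand, so that the printed strand shows TGAGTCA. Anxa2 also held 3 GC box matches, the nearest of them 24 to 19 bases before the start, and 1 TATA box match 17 to 12 bases before it. None of these matches overlapped another. Anxa5 and S100a6 had 0 matches to any of the 5 motifs in this window. Over all 32851 promoters of the table, 4.46% held the AP-1 letters, 32.7% the GC box, 12.4% the TATA box, 1.55% the cAMP response element and 1.47% the CArG box. Among the 6160 promoters of genes on the array, 3.70% held the AP-1 letters, 53.8% the GC box and 8.41% the TATA box. The cAMP response element was in 2.03% of them and the CArG box in 1.49%. A match describes the sequence and does not show binding.

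Anxa2, the membrane-binding part of the annexin A2 complex, had the highest fosBd/d ratio of the 5 probes, but its probes disagreed in size. Probe 7053 gave log2 ratios of 1.71 and 1.49 on fosBd/d replicates 1 and 2, a mean of 1.60 ± 0.16 (SD, n = 2 arrays) or 3.03-fold. Probe 9804 gave 0.69 and 0.34, a mean of 0.51 ± 0.25 or 1.43-fold. Both probes were positive on both fosBd/d arrays, likely higher in the mutant, and their values did not overlap. Probe 7053 exceeded probe 9804 by 1.02 on replicate 1 and by 1.15 on replicate 2, more than the gap between arrays of either probe. Averaged over both probes, Anxa2 stood at 1.06 ± 0.20, or 2.08-fold.

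On the fosB-null arrays Anxa2 lay near 0. Probe 7053 was at -0.11 and -0.15, a mean of -0.13 ± 0.03. Probe 9804 split between arrays, with -0.13 on replicate 1 and 0.42 on replicate 2, a mean of 0.15 ± 0.39. The mean over both probes was 0.01 ± 0.18, so no direction could be given for Anxa2 in fosB-null cells at this spread. The probes differed by 0.02 on fosB-null replicate 1 and by -0.57 on replicate 2 (probe 7053 minus probe 9804), unlike the similar gaps on the fosBd/d arrays.

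Anxa5, the phosphatidylserine-binding annexin, had ratios of 1.00 and 1.28 on the fosBd/d arrays, a mean of 1.14 ± 0.20 or 2.20-fold. Both values lay between those of the Anxa2 probes. On the fosB-null arrays Anxa5 was at -0.49 and -0.52, a mean of -0.50 ± 0.02. These arrays agreed closely on a ratio of the opposite sign to that in fosBd/d, as deposited.

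S100a10, the partner of annexin A2, had smaller fosBd/d ratios than Anxa2 probe 7053. Its log2 ratios were 0.65 and 0.36 on the fosBd/d arrays, a mean of 0.50 ± 0.20 or 1.42-fold. On the fosB-null arrays it was at 0.55 and 0.34, a mean of 0.44 ± 0.15. S100a10 was thus the only one of the 5 probes that was positive on all 4 arrays. Over all probes, 4.25% were positive on all 4. Anxa2 probe 7053, Anxa5 and S100a6 were positive on both fosBd/d arrays and negative on both fosB-null arrays, as were 6.5% of all probes.

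S100a6 had log2 ratios of 0.31 and 0.61 on the fosBd/d arrays, a mean of 0.46 ± 0.21 or 1.38-fold. On the fosB-null arrays it was at -0.28 and -0.31, a mean of -0.29 ± 0.03. Like Anxa5, S100a6 had a tight pair of fosB-null values of the opposite sign, as deposited, and its ratios were less than those of Anxa5 on every array in size.

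**Figure D1:**
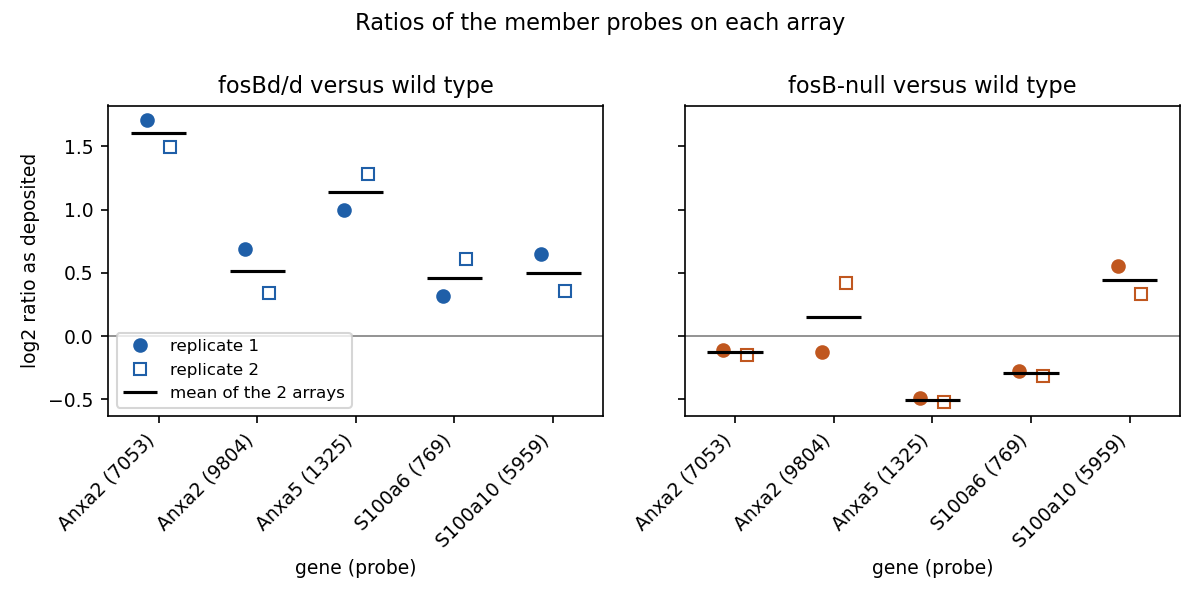
Log2 ratios as deposited (vertical axis) of the 5 probes of Anxa2, Anxa5, S100a6 and S100a10 (horizontal axis, probe number in brackets), with replicate 1 as filled circles, replicate 2 as open squares and the mean of the 2 arrays as a bar. All 5 probes are above 0 on both fosBd/d arrays, while on the fosB-null arrays S100a10 is above 0, Anxa5, S100a6 and Anxa2 probe 7053 are below it, and Anxa2 probe 9804 is split.

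Ordered by fosBd/d mean, the probes ran from Anxa2 probe 7053 (1.60) through Anxa5 (1.14) to Anxa2 probe 9804 (0.51), S100a10 (0.50) and S100a6 (0.46). The last 3 of these overlapped on their arrays and were not separated by their spread. The values of probe 7053 and of Anxa5 did not overlap each other or those of the last 3. In fosB-null the order was S100a10 (0.44), Anxa2 probe 9804 (0.15), Anxa2 probe 7053 (-0.13), S100a6 (-0.29) and Anxa5 (-0.50). Of these neighbours, the values of S100a10 and Anxa2 probe 9804 overlapped, as did those of the 2 Anxa2 probes, and the others did not.

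All 5 probes were positive on both fosBd/d arrays, where 21.7% of all 9480 probes were. The genes were chosen with these ratios known, so nothing is read from that count. By the size rule, Anxa2 probe 7053 was at least 2-fold on both fosBd/d arrays, as were 1.24% of all probes. Anxa5 was just under that size on replicate 1 and above it on replicate 2. In fosB-null, 3 of the 5 probes were negative on both arrays (19.0% of all probes) and 1 was positive on both (18.6% of all probes). None of the 5 reached 2-fold on both fosB-null arrays, where 0.158% of all probes were positive by that rule and 0.0844% negative.

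Set among the means of all probes, Anxa2 probe 7053 lay above 99.5% of them in fosBd/d, Anxa5 above 98.4%, Anxa2 probe 9804 above 90.4%, S100a10 above 89.9% and S100a6 above 88.4%. In fosB-null, S100a10 lay above 94.4% of all probes, S100a6 above 9.84% and Anxa5 above 2.80%. The gaps of the 5 probes between the fosBd/d arrays ran from 0.22 to 0.35, against a median of 0.46 over all probes. Their gaps between the fosB-null arrays were 0.03 for Anxa5, 0.04 for S100a6, 0.05 for Anxa2 probe 7053, 0.21 for S100a10 and 0.55 for Anxa2 probe 9804, against a median of 0.40. Anxa2 probe 9804 in fosB-null was the one gap above the median of its mutant. Since the ratios were known when the members were chosen, nothing is read from their ranks or gaps.

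**Figure D2:**
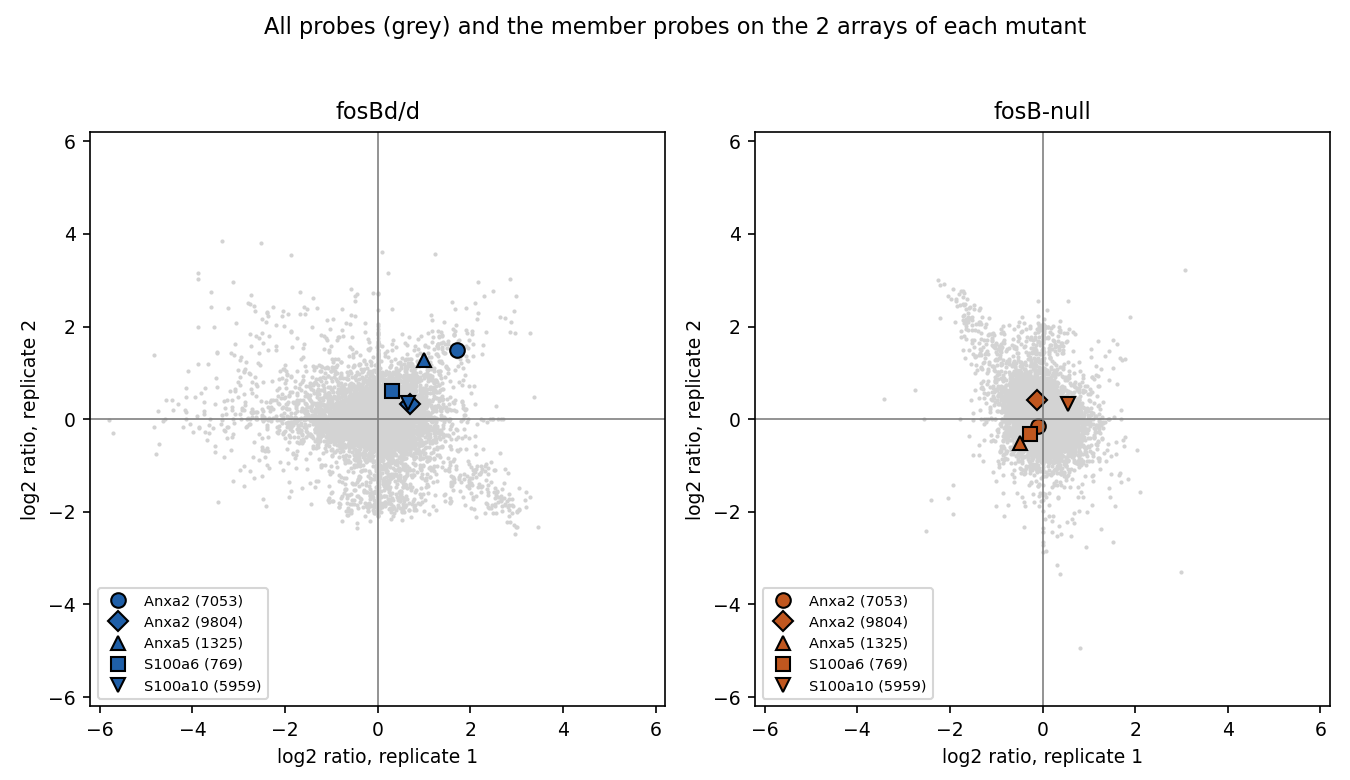
Log2 ratio on replicate 1 (horizontal axis) against replicate 2 (vertical axis) for all 9480 probes in grey and the 5 member probes as coloured symbols, in fosBd/d (left) and fosB-null (right). The grey clouds spread along the axes and the falling diagonal (r = -0.12 and r = -0.32), whereas the members lie in the upper right quadrant for fosBd/d, and for fosB-null in the lower left, apart from S100a10 in the upper right and Anxa2 probe 9804 in the upper left. The members were chosen with these ratios known, so nothing is read from this contrast.

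Between the mutants, both comparisons share wild-type cells as the control, and the difference of their ratios depends on the reading of fosB-null. As deposited, fosBd/d exceeded fosB-null by 1.73 ± 0.11 (SE from the spread within each mutant) for Anxa2 probe 7053, by 1.64 ± 0.14 for Anxa5, by 0.75 ± 0.15 for S100a6, by 0.37 ± 0.33 for Anxa2 probe 9804 and by 0.06 ± 0.18 for S100a10. With the fosB-null sign turned, as the dye names would have it, these differences became 1.47, 0.63, 0.17, 0.66 and 0.94. For Anxa2 probe 7053 both readings gave a similar size, which its fosB-null mean near 0 (-0.13) fixes in advance. The S100 genes exchanged places, with S100a10 near 0 as deposited and S100a6 nearest to 0 with the sign turned. Read by the colour words in the labels, the differences have the sizes of the turned ones and the other sign.

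Other annexins and S100 genes were represented by 14 probes of 14 genes, 6 annexins and 8 S100 genes. In fosBd/d, 7 of them were positive on both arrays (21.7% of all probes) and 0 were negative on both (22.0% of all probes). The remaining 7 differed in sign or were listed at 0 on 1 array. In limma, 0 of the 14 passed an adjusted p of 0.05, as did 0.0% of all probes. At an unadjusted p under 0.05, 6 of the 14 were positive (9.83% of all probes) and 0 negative (6.02% of all probes), each with an adjusted p of 0.297. Without fosBd/d replicate 2 that count was 1, without replicate 1 it was 3 positive and 1 negative, and without either fosB-null array it was 3.

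Among the annexins, Anxa4, a membrane-binding annexin of epithelia, stood at 0.75 and 1.19 in fosBd/d, a mean of 0.97 ± 0.31. Anxa7 (synexin) was at 0.54 and 0.64, a mean of 0.59 ± 0.07. Both lay on the same side as the members on both arrays. Anxa11 was positive but small, 0.07 ± 0.04, and Anxa10 was listed at 0 on replicate 1 and at 0.10 on replicate 2. Anxa3 reversed between arrays, with 0.94 and -1.07, and Anxa8 did so with -0.15 and 0.57. The median over the 6 annexin probes was 0.14 (0.29 and 0.34 on replicates 1 and 2 alone), beside -0.02 over all probes.

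Among the S100 genes, S100g (calbindin-D9k, a carrier of calcium in absorbing epithelia) had ratios of 1.38 and 1.65, a mean of 1.51 ± 0.19 or 2.85-fold. It was the only one of the 14 at least 2-fold on both fosBd/d arrays. S100a1, a calcium regulator of muscle, was at 0.89 and 0.82 (0.86 ± 0.05). S100a13, which takes part in the export of a growth factor, was at 0.59 and 0.89 (0.74 ± 0.21). S100a4, an S100 protein tied to cell motility, was at 0.68 and 0.61 (0.65 ± 0.05). These 4 lay above S100a6 and S100a10 in mean, though the values of S100a13 overlapped both of theirs and those of S100a4 overlapped S100a10. S100a8 and S100a9, the calprotectin subunits of neutrophils, had means of -0.18 ± 0.28 and 0.19 ± 0.27. S100a5 stood at -0.07 ± 0.10, and S100b, of glial cells, was listed at 0 on replicate 1 and at -1.59 on replicate 2. The median over the 8 S100 probes was 0.42.

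In fosB-null, 3 of the 14 were positive on both arrays (18.6% of all probes) and 4 negative on both (19.0% of all probes). In limma 0 passed (0.0% of all probes), 0 had an unadjusted p under 0.05 (2.95% of all probes were positive and 3.14% negative at that level), and the smallest adjusted p was 0.651. The count at an unadjusted p was 1 with quantile normalization (S100a1) and 1 without fosB-null replicate 2 (S100g). The negative ones were Anxa3 (-0.60 ± 0.44), S100a4 (-0.28 ± 0.28), S100a13 (-0.28 ± 0.11) and Anxa4 (-0.14 ± 0.20), and the positive ones S100a1 (0.35 ± 0.05), Anxa11 (0.20 ± 0.11) and S100a8 (0.16 ± 0.09). S100a1 and Anxa11 were therefore positive on all 4 arrays, as S100a10 was, while S100a4, S100a13 and Anxa4 had the signs of Anxa5 and S100a6. S100g was at 1.27 on fosB-null replicate 1 and -0.07 on replicate 2, which gives it no direction. The others were Anxa7 at 0.11 ± 0.21, Anxa8 at 0.24 ± 0.33, Anxa10 at 0.25 ± 0.40, S100a5 at 0.34 ± 0.48, S100a9 at -0.22 ± 0.54 and S100b at 0.10 ± 0.45.

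**Figure D3:**
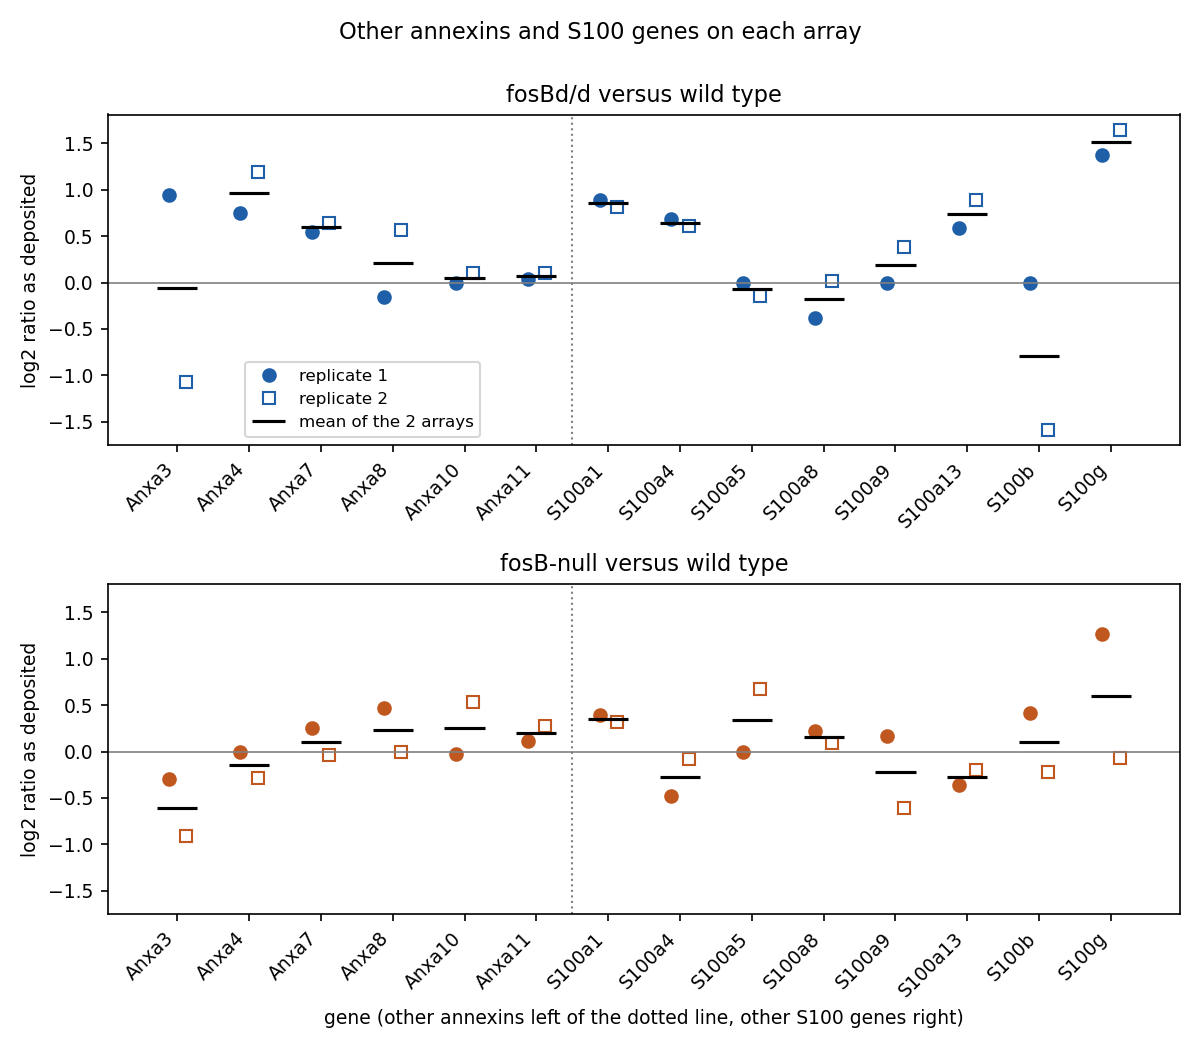
Log2 ratios as deposited (vertical axis) of the 6 other annexins and 8 other S100 genes (horizontal axis) in fosBd/d (top) and fosB-null (bottom), with replicate 1 as filled circles, replicate 2 as open squares and the mean as a bar. In fosBd/d, S100g, Anxa4, S100a1, S100a13, S100a4 and Anxa7 are above 0 on both arrays by at least 0.54, while Anxa3 and S100b show wide gaps between arrays.

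Genes of plasminogen activation at the cell surface, where the annexin A2 complex acts, had 8 of 12 list members measured. In fosBd/d, 3 were positive and 2 negative on both arrays (21.7% and 22.0% of all probes), with a median of 0.27. The urokinase receptor Plaur stood at 1.18 and 1.66, a mean of 1.42 ± 0.34, and was the only one at least 2-fold on both. Plasminogen itself (Plg) was at 0.69 ± 0.45 and the hyaluronan receptor Cd44 at 0.40 ± 0.34. The tissue activator Plat, which binds the annexin A2 complex, was at 1.94 on replicate 1 and -0.06 on replicate 2, and the urokinase gene Plau was at -0.15 ± 0.18. Ahnak, a large protein that the complex holds at the membrane, was at -0.16 ± 0.20. These genes other than Plaur were singled out after their values were seen, and Plat is also counted among the parietal endoderm markers. In fosB-null, 6 of the 8 were negative on both arrays (19.0% of all probes) and 1, Ahnak, was positive on both (18.6%), with a median of -0.28. The lowest were Cd44 at -0.68 ± 0.45 and Serpinb2, an inhibitor of plasminogen activators, at -0.42 ± 0.51. In limma 0 of the 8 passed in either mutant (0.0% of all probes), and at an unadjusted p under 0.05 there were 3 positive for fosBd/d (9.83% of all probes) and 2 negative for fosB-null (3.14%).

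Cortical actin and membrane linkers, to which annexin A2 connects, had 13 probes of 12 genes, Cd44 and Ahnak again among them. In fosBd/d 7 were positive and 2 negative on both arrays (21.7% and 22.0% of all probes), with a median of 0.28. Zyx, a focal adhesion protein, had 1.08 and 1.10, a mean of 1.09 ± 0.01. The spectrin chain Sptbn1 was at 2.07 ± 0.66 by 1 probe and 0.09 ± 0.00 by another. In fosB-null 1 was positive and 5 negative on both arrays (18.6% and 19.0% of all probes), with a median of -0.15, Zyx at -0.52 ± 0.07 and Cd44 again at -0.68. In limma 0 passed in either mutant, and at an unadjusted p under 0.05 there were 5 positive for fosBd/d (9.83% of all probes) and 3 negative for fosB-null (3.14%).

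Of all probes, 21.7% were positive and 22.0% negative on both fosBd/d arrays, and 18.6% and 19.0% on both fosB-null arrays, which is the background for the next 3 lists. EF-hand genes outside the S100 family had 17 probes of 16 genes, with 7 positive and 2 negative on both fosBd/d arrays and a median of 0.15. The actin-binding Efhd2 stood at 0.96 ± 0.23 and the calpain Capn2, a calcium-dependent protease, at 0.94 ± 0.39. In fosB-null 4 were positive and 3 negative on both, the median was 0.03, and the first by size were Efhd2 at 0.35 ± 0.37 and the myosin light chain Myl6 at 0.28 ± 0.25. Membrane repair and caveola genes, which share Capn2 and Pdcd6 with that list, had 9 probes, with 4 positive and 1 negative on both fosBd/d arrays and a median of 0.16. The negative one was Cav3, the muscle caveolin, at -1.57 ± 0.66, and Cav3 was also negative in fosB-null at -0.73 ± 0.14. In that list 0 were positive and 3 negative on both fosB-null arrays, with a median of -0.06 and Capn2 at -0.19 ± 0.22. Proteins that bind S100 dimers, and their receptor, had 7 probes of 5 genes, with 0 positive and 4 negative on both fosBd/d arrays and a median of -0.20. Among them were Sugt1, a cochaperone, at -0.65 ± 0.28 (its other probe at -0.17 ± 0.09), the potassium channel Kcnk3 at -0.23 ± 0.04 (its other probe at 0.31 ± 0.43) and Cacybp, the calcyclin-binding protein named after its value was seen, at -0.20 ± 0.06. In fosB-null 2 were positive and 1 negative on both, the median was 0.10, Mdm2 was at -0.32 ± 0.15 and Sugt1 at 0.22 ± 0.29. That Sugt1 value is of the probe at -0.17 in fosBd/d, and the Sugt1 probe at -0.65 there stood at 0.10 ± 0.12 in fosB-null. In limma 0 probes of these 3 lists passed in either mutant. At an unadjusted p under 0.05 in fosBd/d, 4 EF-hand probes were positive, 2 repair probes positive and 1 negative, and 1 binding partner probe negative, beside 9.83% positive and 6.02% negative over all probes. In fosB-null there were 0 in these lists, beside 2.95% positive and 3.14% negative.

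Annexins and S100 genes are also expressed in endoderm and in fibroblasts, so markers of these cells are given beside the members. In bulk RNA a change in the share of cells of a type cannot be told apart from a change of RNA per cell. In fosBd/d, 13 of 16 parietal endoderm probes were positive on both arrays and 0 negative, all 13 at least 2-fold on both (1.24% of all probes), with medians of 2.04 and 1.82 on replicates 1 and 2. The highest were Col4a2 at 2.57 ± 0.56, Thbd at 2.57 ± 1.00, Col4a1 at 2.48 ± 0.25 and Lamb1 at 2.46 ± 0.39. The members' ratios in fosBd/d were below this list's median of 1.75. The same-sign counts of the marker lists stand beside 21.7% positive and 22.0% negative over all probes. Visceral endoderm markers had 9 of 13 probes positive on both and 0 negative, with medians of 1.05 and 0.66. Lrp2 was at 1.78 ± 0.16, Spink1 at 1.63 ± 0.35, Amn at 1.44 ± 0.01 (its other probe at 0.32 ± 0.51) and Ctsh at 1.42 ± 0.21. Feeder fibroblast markers had 6 of 15 positive and 3 negative on both, with medians of -0.06 and 0.19, and among them Loxl1 was at -0.76 ± 0.43 and Acta2 at 0.71 ± 1.00. S100a4 is counted in this list as well as among the S100 genes, and is 1 of the 6 positive. Pluripotent cell markers had 2 of 11 positive and 5 negative on both, with medians of -0.27 and 0.12, and Nr5a2 was at -0.82 ± 0.16 and Alpl at -0.79 ± 0.21. The part of these cell types in the members' ratios was not tested.

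In fosB-null, parietal endoderm markers had 0 positive and 10 of 16 negative on both arrays (18.6% and 19.0% of all probes, also for the marker lists that follow), with medians of -0.35 and -0.33 and Thbd at -1.45 ± 0.62. Anxa5, S100a6 and Anxa2 probe 7053 had this sign, and S100a10 had the other. The fosB-null medians of the plasminogen, cortical actin, membrane repair, feeder and pluripotent cell lists were negative as well. Visceral endoderm markers had 7 of 13 positive and 2 negative on both, with medians of 0.61 and 0.22, and Ctsh was at 1.72 and 1.29 on replicates 1 and 2, Amn at 1.46 ± 0.02 (its other probe at 0.11 ± 0.70), Spink1 at 1.31 ± 0.30 and Cited1 at 1.19 ± 0.20. S100a10 had the sign of this list's median in both mutants. By its means, Anxa2 probe 9804 (0.51 in fosBd/d and 0.15 in fosB-null) did so as well, though split between the fosB-null arrays. This sign is not particular to visceral endoderm markers. Medians in fosBd/d and fosB-null were also positive for the other annexins (0.14 and 0.15), other S100 genes (0.42 and 0.13) and EF-hand genes (0.15 and 0.03). Feeder markers had 0 positive and 5 of 15 negative on both, with medians of -0.22 and -0.08, and Tnc was at -0.85 ± 0.03 and Col1a1 at -0.78 ± 0.05. Pluripotent cell markers had 1 of 11 positive and 7 negative on both, with medians of -0.30 and -0.21, Dppa2 at -0.50 ± 0.28 and Utf1 at -0.41 ± 0.30. In limma 0 marker probes passed an adjusted p of 0.05 in either mutant. At an unadjusted p under 0.05, 13 parietal and 7 visceral endoderm probes were positive for fosBd/d, with 3 feeder probes (S100a4 among them) positive and 1 negative and 2 pluripotent cell probes positive and 4 negative, beside 9.83% positive and 6.02% negative over all probes. For fosB-null, 3 parietal, 2 feeder and 4 pluripotent cell probes were negative and 5 visceral probes positive, beside 3.14% negative and 2.95% positive over all probes. The part of these cells in the fosB-null ratios was not tested either.

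**Figure D4:**
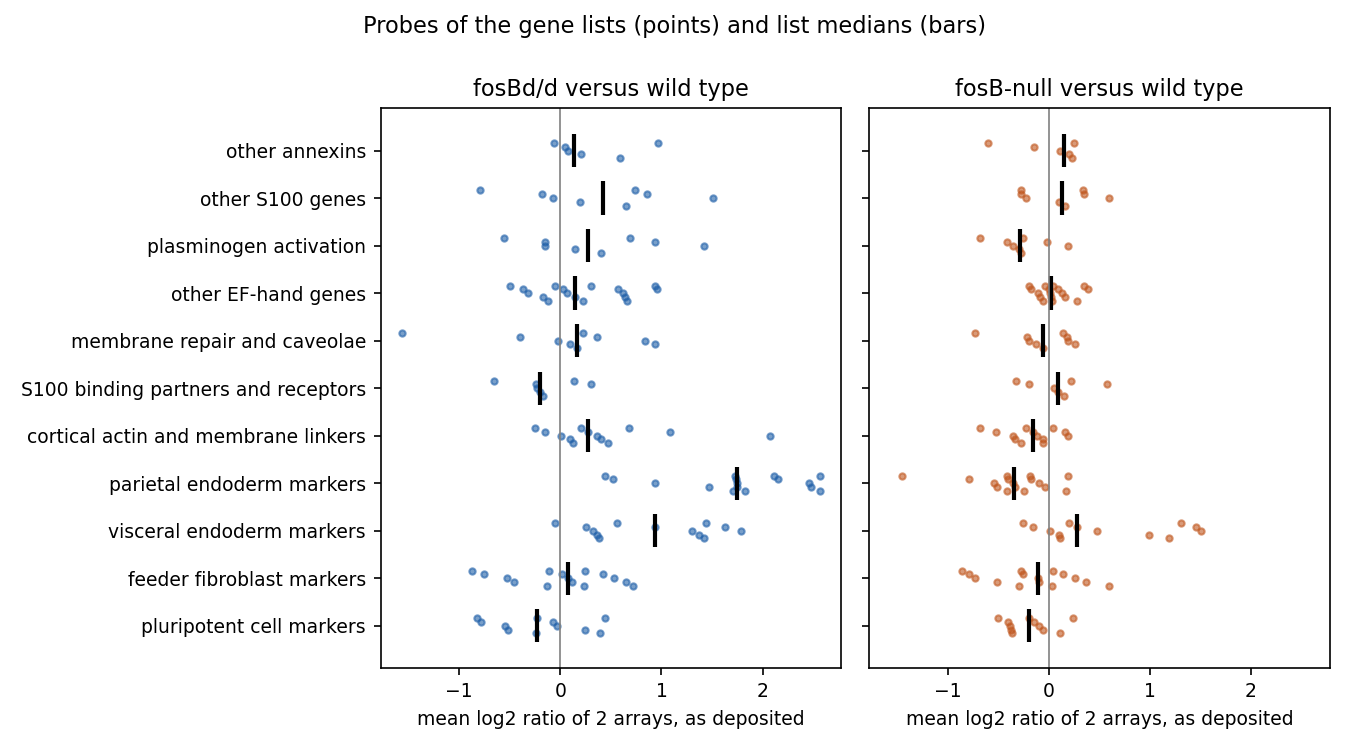
Mean log2 ratio of the 2 arrays (horizontal axis, as deposited) for each probe (points) of 7 gene lists and 4 marker lists (vertical axis), with the list median as a bar, in fosBd/d (left) and fosB-null (right). Parietal endoderm markers have the highest fosBd/d median, 1.75, and the lowest fosB-null median, -0.34, while the lists around the annexins and S100 genes have medians between -0.20 and 0.42 in fosBd/d.

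The probes nearest to each member were ranked by Euclidean distance over the 4 log2 ratios. Those nearest to Anxa5 were Zyx (distance 0.22), the thiol reductase Glrx (0.29), the gamma-tubulin complex gene Tubgcp4 (0.32), the adhesion receptor Vcam1 (0.32) and Rab15 (0.40). Zyx stood at 1.08, 1.10, -0.57 and -0.47 on fosBd/d replicates 1 and 2 and fosB-null replicates 1 and 2, close to the ratios of Anxa5 on every array. Nearest to S100a6 were Mxra8 (0.12), Sec23ip (0.12), Daxx (0.15), Aplp1 (0.17) and Krt15 (0.18), and nearest to S100a10 were 4933439C10Rik (0.24), the serine protease Tmprss2 (0.26), the deacetylase Hdac11 (0.28), the laminin chain Lama4 (0.30) and Pde1a (0.30). Nearest to the mean of the Anxa2 probes were Rin3 (0.31), the sulfate transporter Slc26a2 (0.31), Tmem127 (0.31), the endoplasmic reticulum chaperone Hspa5 (0.31) and Prcp (0.32). The distance between the Anxa2 probes was 1.64, larger than that of these genes from their mean, so the list describes the mean and not either probe. The distance between Anxa2 probe 7053 and S100a10 was 1.76. Anxa2 probe 9804 was nearer to S100a10 (0.68) than probe 7053 was. These distances rest on 4 arrays that share wild-type cells.

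S100a6 lies within the S100 gene cluster of chromosome 3, and S100a10 lies on the same chromosome with 60 protein-coding genes between them in the RefSeq gene order. Of the 10 protein-coding genes on each side of S100a10, 0 had a probe. Of the 10 on each side of S100a6, 8 had a probe. S100a5, next to S100a6, and S100a8 and S100a9 beyond S100a7a on the other side had fosBd/d means of -0.07, -0.18 and 0.19. Each of them either differed in sign between the arrays or was listed at 0 on 1 array. S100a4, beyond S100a5, and S100a13 and S100a1 further along were positive on both arrays. Lor (loricrin, of the skin barrier) was also positive on both, at 1.31 ± 0.23, and Chtop was negative on both, at -0.26 ± 0.02. The fosBd/d median of these 8 probes was 0.42, and that in fosB-null was 0.02. The other S100 genes had the same fosBd/d median, and the S100 neighbours are counted in that list too, so these are not separate results. On both fosBd/d arrays 4 of these neighbours were positive and 1 negative (21.7% and 22.0% of all probes). Around Anxa2 on chromosome 9, 12 probes of 8 neighbours had a fosBd/d median of 0.06. On both arrays 1 was positive and 4 negative (21.7% and 22.0% of all probes). Around Anxa5 on chromosome 3, 5 neighbours had a median of -0.01, with 0 positive and 1 negative beside the same shares. Anxa5 and the mean of the Anxa2 probes had higher fosBd/d means than each of these neighbours. The members were chosen with their ratios known and the neighbours were not, so nothing is read from that ranking. The highest Anxa2 neighbour was Rora, at 0.71 ± 0.66, which lay above Anxa2 probe 9804. These differences from neighbours were not tested.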

How the data were processed

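Each array has 1 value per probe as the authors deposited it. It was taken as a log10 ratio between channels, following the definition in Agilent Feature Extraction, the program in the submitters' processing notes. The base is not written in the file. For the program's version, background correction, dye normalization and filters, nothing was stated. Values were converted to log2, and signal intensities were not used here. Probes were named from an annotation of 2007, with symbols updated by gene identifier (6496 of 6566 probes with 1 gene matched). All 9480 probes on 4 arrays were fitted with limma 3.58.1 under R 4.3.3, using 1 coefficient for each mutant plus a dye term signed by the minus marks on exact zeros. It left 1 residual degree of freedom, and the prior had 1.333. The step was tested on simulated data, but what size of change it could find at the spread of these arrays is not given here. The threshold was an adjusted p of 0.05 (Benjamini-Hochberg, two-sided). The size rule asked for 2-fold or more in one direction on both arrays of a mutant.

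The members and gene lists were chosen with earlier results of these data known, and the members' ratios carry no test. All members, other annexins and S100 genes are named. Of the other lists, up to 4 genes per mutant past the size rule are named, largest first, else the 2 largest with the same sign on both arrays. The 5 probes nearest to each member by Euclidean distance over the 4 log2 ratios are also named. Means are given ± SD over 2 arrays, and the number of arrays limits the precision. Alternatives were no dye term, quantile normalization, arrays scaled to the same SD and exact zeros taken as missing. Others were each array left out, the fosB-null sign turned, single probes and 1.5-fold. The limma fits with an array left out also had no dye term.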

Additional observations from a re-analysis of the deposited data

Results flagged for a closer look

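Some probes were positive on both fosBd/d arrays and negative on both fosB-null arrays, as deposited, so that every array of one mutant stood opposite to every array of the other. Among the members these were Anxa2 probe 7053 (difference 1.73), Anxa5 (1.64) and S100a6 (0.75), and among the related genes Anxa4 (1.11), S100a13 (1.02) and S100a4 (0.92). Over all probes, 6.5% showed this pattern. The difference between the mutants was not tested for the members, whose ratios chose them, and 0 probes passed for this difference in limma (0.0% of all probes). With the fosB-null sign turned, these 6 probes would lie on the same side in both mutants, and S100a10, S100a1 and Anxa11 on opposite sides.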

How the results depend on the processing

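Every limma count of probes past the adjusted threshold stayed at 0 under the alternatives run, while the number with an unadjusted p under 0.05 in fosBd/d went from 1503 to 709 without the dye term, to 813 or 973 without fosBd/d replicate 1 or 2, and to 351 without either fosB-null array. In fosB-null it went from 578 to 179 without the dye term, to 176 without either fosBd/d array, and to 179 or 46 without fosB-null replicate 1 or 2. At 1.5-fold in place of 2-fold, 314 probes were positive and 131 negative in fosBd/d, against 118 and 32, and in fosB-null 55 and 48, against 15 and 8. Leaving out 1 of 2 arrays moves a mean by a fixed share of the SD, so those values are not counted here. Of 20 other alternative values of the members' ratios, 14 moved by less than the SD between arrays. The 6 that moved more were Anxa2 by single probes in fosBd/d (1.60 and 0.51, mean 1.06), Anxa5 in fosB-null with quantile normalization (-0.66) or arrays scaled to the same SD (-0.64), and S100a6 in fosB-null likewise (-0.35 and -0.37). With the fosB-null sign turned, the difference between mutants became 0.63 for Anxa5, 0.17 for S100a6 and 0.94 for S100a10. For Anxa2 it was 1.07 against 1.05 as deposited, which follows from its fosB-null mean near 0 (0.01). The list medians kept their sign in every alternative for 8 of 11 lists in fosBd/d and 7 of 11 in fosB-null. The count of related genes at an unadjusted p, whose alternatives were chosen after seeing the data, was 5 with quantile normalization. With 2 arrays per mutant no member ratio could be checked in further cultures, and signal over background was not used here.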

Other observations

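Over the probes whose gene has an entry in the promoter table, 245 belong to genes with an AP-1 match in the 250 bases before a start site. Their median fosBd/d ratio was -0.01, beside -0.02 over probes without a match, and the fosB-null medians were 0.01 and 0.0. Anxa2, which has an AP-1 match, had a mean of 1.06 in fosBd/d, a value known when the gene was chosen, and of 0.01 in fosB-null. The grouping was made after the ratios were seen, and the difference was not tested.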
